A study of Mus musculus with 2 samples.

Results

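The 10 genes described here encode the core of the G1 cell cycle engine: the D-type cyclins Ccnd1, Ccnd2 and Ccnd3, the E-type cyclin Ccne1, the kinases Cdk4 and Cdk6, the CIP/KIP inhibitors Cdkn1a and Cdkn1b, and the INK4 inhibitors Cdkn2c and Cdkn2d. They were taken by symbol, and all 10 were present among the 24421 gene symbols of the bulk RNA-seq data. RNA came from granulocyte-monocyte progenitors (GMPs), BM cells committed to the granulocyte and monocyte lineages, which had been isolated by flow cytometry. The NTB-GMP group was 1 library from female non-tumor-bearing mice, and the 4T1-GMP group was 1 library from female mice into which cells of the mammary carcinoma line 4T1 had been implanted orthotopically. The labels give both groups the same F1 semi-syngeneic (H-2b/d) background, whereas the study's methods describe young adult BALB/c and C57BL/6 females, and the number of mice pooled in a library and the day of collection are not given in the sources used here.

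D-type cyclins bind CDK4 and CDK6 when growth factors call on a cell to leave early G1. The complexes phosphorylate the RB protein, which then releases E2F transcription factors, and E2F switches on cyclin E and the genes of S phase. INK4 proteins bind CDK4 and CDK6 and keep the D-type cyclins away, while CIP/KIP proteins bind assembled cyclin-CDK complexes and restrain CDK2 in particular. In the BM, myeloid progenitors divide repeatedly and leave the cell cycle as granulocytes mature, and Cdk6 is a prominent kinase of blood stem and progenitor cells.

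With 1 library per group there was no replicate check, so no difference below carries a test and any interval covers counting error only. Values are RPKM, read numbers scaled to gene length and library size. Levels compared between genes, and sums and shares of several genes, depend on the gene lengths used, which are not given in the sources used here. Reads behind each value were recovered from the digits of the RPKM as lower bounds. The divisors, which stand for library size in the RPKM, came to 10180365.24 for NTB-GMP and 30016262.80 for 4T1-GMP, which is 2.95 times as large. All log2 ratios put 4T1-GMP over NTB-GMP and were taken after adding 0.1 RPKM, which understates the change of low genes. Over the 10378 genes with a mean of at least 1 RPKM, called the genes tested below, the median log2 ratio was 0.05 and 54.7% were higher in 4T1-GMP. Without Rn45s, the ribosomal RNA precursor, in the library sizes, that median was -0.11 with 4071 genes higher and 6307 lower, and after quantile normalization it was 0.01 with 5244 higher and 5118 lower. A difference of 1.5-fold or more was counted as past the fold. In bulk samples, fewer cells of a type and less RNA per cell cannot be told apart.

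The 4T1-GMP library held more Ccne1, somewhat more Ccnd3 and, except after quantile normalization, Cdk4, and less Ccnd2, Cdk6, Cdkn1b and Cdkn2c than the NTB-GMP library. The rises of Ccnd3 and Cdk4 depended on the scaling, with log2 ratios of 0.11 and 0.07 without Rn45s in the library sizes. Cdkn1a and Cdkn2d differed by less than their counting error. Among the 9 members with a mean of at least 1 RPKM, 1 was higher in 4T1-GMP by 1.5-fold or more (Ccne1), against 9.80% of all genes tested, and 1 was lower by as much (Ccnd2), against 11.6% of all genes tested. The other 7 lay within 1.5-fold. The whole counting interval lay above 0 for 3 of the 9 members, against 36.3% of all genes tested, and below 0 for 4, against 28.0%. The counts past 1.5-fold are near the background. The median log2 ratio of the 9 members was 0.10 against 0.05 over all genes tested. Without Rn45s in the library sizes it was -0.05 against -0.11, and after quantile normalization -0.02 against 0.01.

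**Figure D1:**
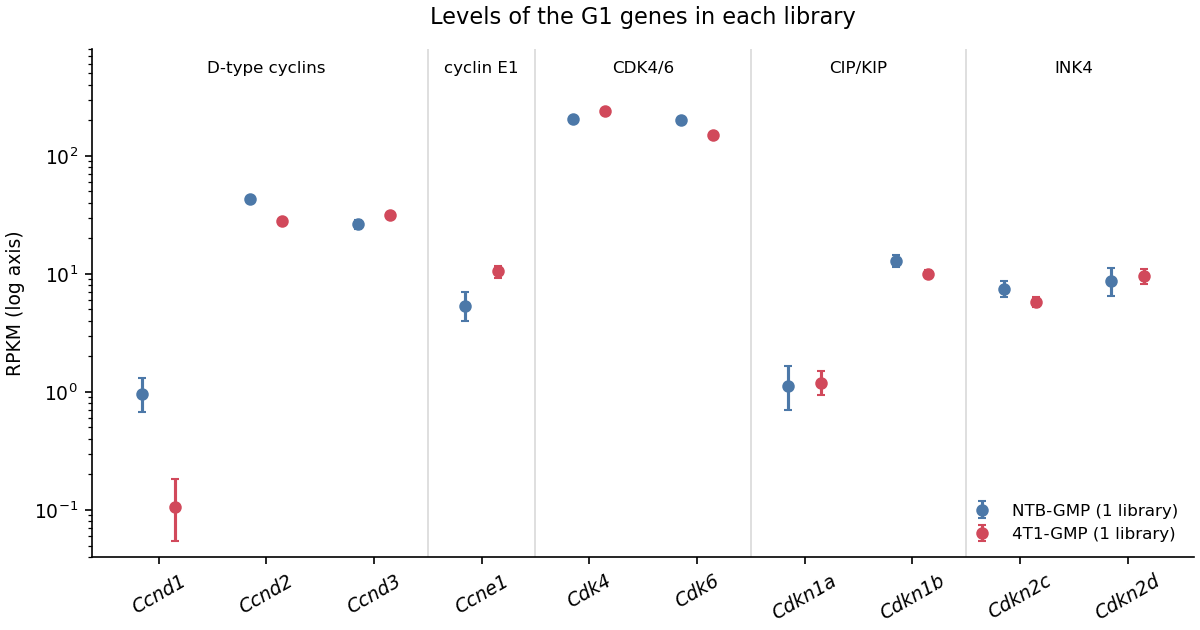
RPKM of the 10 genes on a log axis in the NTB-GMP library (blue) and the 4T1-GMP library (red), with 95% Poisson intervals on the recovered reads of each library. Cdk4 and Cdk6 lie between 149 and 242 RPKM in both libraries, and Ccnd1 lies under 1 RPKM in both.

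Among the D-type cyclins, Ccnd2 and Ccnd3 exchanged rank in RPKM. Ccnd2, encoding cyclin D2, which growth factors and cytokines induce, lies at chr6:127125162-127152193 on the minus strand (GRCm38, GENCODE M21, as for the positions that follow) and had 42.9 RPKM in NTB-GMP against 28.2 in 4T1-GMP. Its log2 ratio was -0.61 (95% Clopper-Pearson interval on at least 2521 and 4880 reads, -0.68 to -0.54), just past 1.5-fold. Ccnd3 (chr17:47505051-47599691, plus strand), encoding cyclin D3, had 26.3 RPKM in NTB-GMP against 31.8 in 4T1-GMP, a log2 ratio of 0.27 (interval 0.14 to 0.41). By RPKM Ccnd2 was thus the higher of the pair in NTB-GMP and Ccnd3 in 4T1-GMP. Which of them is higher within a library depends on the gene lengths used, which are not given in the sources used here. The ratio of Ccnd2 to Ccnd3 RPKM was 1.63 in NTB-GMP and 0.885 in 4T1-GMP, a log2 change of -0.88 with an exact conditional interval of -1.03 to -0.73. A ratio within a library does not depend on the library size, and its change between libraries does not depend on the gene lengths.

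Ccnd1 (chr7:144929931-144939925, minus strand), encoding cyclin D1, was a minor transcript in both libraries. It had 0.957 RPKM in NTB-GMP, from at least 37 reads, and 0.105 RPKM in 4T1-GMP, from at least 12 reads. The log2 ratio was -2.36 with 0.1 RPKM added and -3.18 without, and the interval on the reads ran from -4.26 to -2.21. Its mean of 0.531 RPKM kept it out of the genes tested and out of the counts above. Ccnd1 made up 1.36% of the summed D-type cyclin RPKM in NTB-GMP and 0.175% in 4T1-GMP. The sum of the 3 cyclins was 70.2 RPKM in NTB-GMP against 60.1 in 4T1-GMP, a log2 ratio of -0.22, so the shift in make-up was larger than the shift in the total. Ccnd2 accounted for 61.2% of that sum in NTB-GMP and 46.9% in 4T1-GMP, and Ccnd3 for 37.5% and 53%.

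Ccne1 (chr7:38097984-38107534, minus strand), encoding cyclin E1, the partner of CDK2 at entry into S phase, showed the greatest relative increase of the 10 genes. It had 5.32 RPKM in NTB-GMP, from at least 53 reads, and 10.5 RPKM in 4T1-GMP, from at least 307 reads. The log2 ratio was 0.96 (interval 0.55 to 1.42), above that of 96.5% of all genes tested. In level Ccne1 remained well below the kinases, at percentile 24.2 of the genes tested in NTB-GMP and percentile 45 in 4T1-GMP. Ccne2, which encodes the other E-type cyclin and is no member, had 10.4 and 13.9 RPKM (log2 ratio 0.41, interval 0.24 to 0.58). By RPKM Ccne2 was the more abundant E-type cyclin in both libraries, and in 4T1-GMP Ccne1 reached 10.5 RPKM beside 13.9 RPKM for Ccne2.

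**Figure D2:**
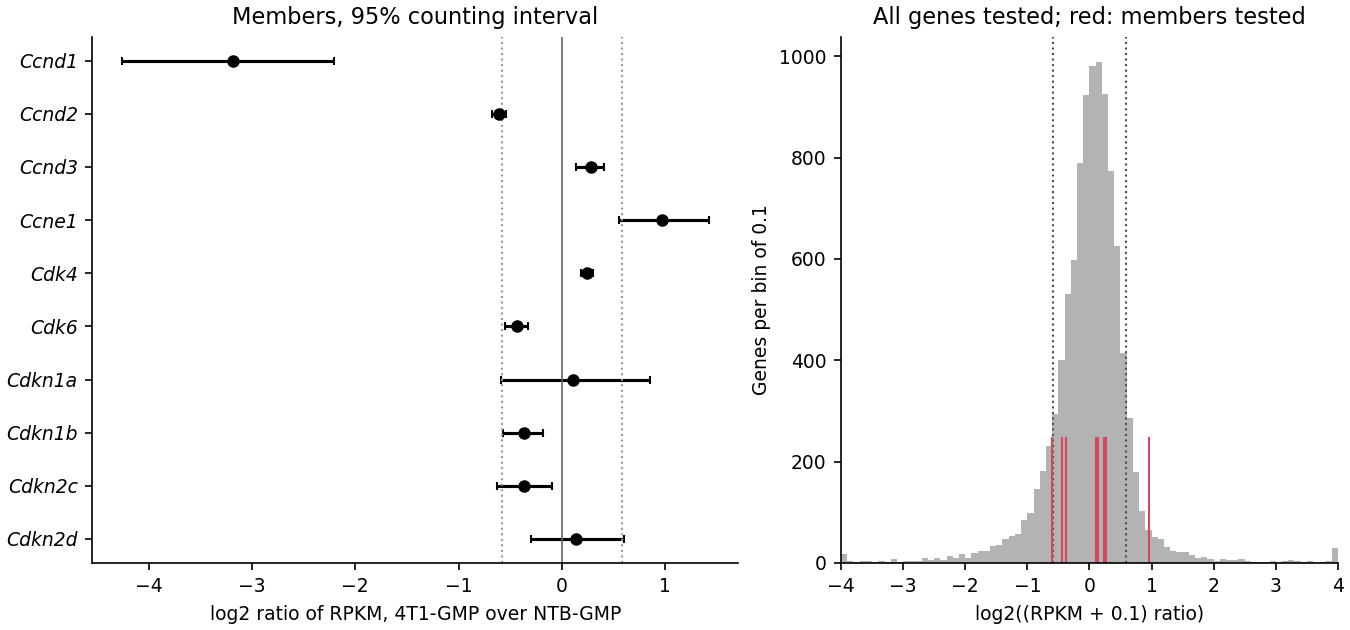
Left, log2 ratio of RPKM without a pseudocount for each member, with its 95% Clopper-Pearson interval on the reads; dotted lines mark 1.5-fold. Right, number of genes per bin of the log2((RPKM + 0.1) ratio) over the 10378 genes tested, with red lines at the 9 members tested; the end bins also hold genes beyond them. Only Ccne1 and Ccnd2 among the tested members lie past the dotted lines, Ccne1 at 0.96 and Ccnd2 at -0.61.

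Cdk4 and Cdk6, the kinases that D-type cyclins activate, were by RPKM the most abundant members by far and nearly equal in NTB-GMP. Cdk4 (chr10:127063534-127067920, plus strand) had 205 RPKM in NTB-GMP against 242 in 4T1-GMP (log2 ratio 0.24, interval 0.18 to 0.30), at percentile 97.9 of the genes tested in both libraries. Cdk6 (chr5:3341485-3531008, plus strand) had 202 RPKM in NTB-GMP against 149 in 4T1-GMP (log2 ratio -0.44, interval -0.55 to -0.33), at percentiles 97.9 and 96.3. The ratio of Cdk6 to Cdk4 went from 0.985 in NTB-GMP to 0.615 in 4T1-GMP, a log2 change of -0.68 (exact conditional interval -0.80 to -0.55). Their sum was 407 RPKM in NTB-GMP against 391 in 4T1-GMP, a log2 ratio of -0.06, so the summed kinase RNA differed little while Cdk4 took 50.4% of it in NTB-GMP and 61.9% in 4T1-GMP. After quantile normalization Cdk4 was no longer higher in 4T1-GMP (log2 ratio -0.02), whereas Cdk6 stayed lower (-0.70).

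The sequences before the start sites of the kinase genes differ in their E-boxes, the motif CACGTG to which MYC and related factors bind, and are shown because the ratio between these genes differed between the libraries. Each sequence holds the 250 bases before the RefSeq start of the gene on GRCm38.p6, read on the coding strand from 5′ to 3′, with CACGTG in capitals. The window of Cdk4 is chr10:127063285-127063534 on the plus strand, and that of Cdk6 is chr5:3343643-3343892 on the plus strand. The Cdk6 window lies inside the GENCODE M21 span of the gene, which starts at chr5:3341485. It is therefore not upstream of the GENCODE start, whereas the Cdk4 window ends at it.
Cdk4: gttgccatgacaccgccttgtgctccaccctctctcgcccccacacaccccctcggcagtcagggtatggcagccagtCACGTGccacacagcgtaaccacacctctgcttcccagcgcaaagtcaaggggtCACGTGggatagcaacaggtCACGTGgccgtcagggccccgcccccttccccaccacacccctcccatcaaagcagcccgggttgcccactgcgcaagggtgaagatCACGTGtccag
Cdk6: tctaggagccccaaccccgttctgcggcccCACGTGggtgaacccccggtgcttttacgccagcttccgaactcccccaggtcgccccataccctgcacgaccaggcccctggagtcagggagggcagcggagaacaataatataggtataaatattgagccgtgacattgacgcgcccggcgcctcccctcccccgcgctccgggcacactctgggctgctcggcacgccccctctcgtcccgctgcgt
The Cdk4 window holds 4 copies and the Cdk6 window 1. Of 32851 promoter windows of the same length, 6.02% hold at least 1 copy and 0.0213% hold at least 4. The motif reads the same on both strands. Myc itself had 138 RPKM in NTB-GMP against 108 in 4T1-GMP (log2 ratio -0.36, interval -0.42 to -0.31). A match is a description of the letters in these windows and not a measured binding site. Whether the E-boxes or Myc play a part in the ratio of Cdk6 to Cdk4 was not tested.

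The window before the RefSeq start of Ccne1, the member with the greatest relative increase, is chr7:38107491-38107740 on the minus strand. Its 3′ end lies within the GENCODE M21 span of the gene. GGGCGG, the motif of SP1, or its reverse complement CCGCCC is in capitals.
Ccne1: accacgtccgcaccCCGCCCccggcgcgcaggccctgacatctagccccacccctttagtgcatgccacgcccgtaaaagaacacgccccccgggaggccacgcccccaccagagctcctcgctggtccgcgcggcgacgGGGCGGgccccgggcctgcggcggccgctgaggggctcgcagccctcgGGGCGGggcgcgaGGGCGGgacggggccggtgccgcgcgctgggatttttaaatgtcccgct
It holds 4 copies, and 32.7% of the promoter windows hold at least 1, while the share with 4 or more was not counted. Among the other members, 1 window of Cdkn2c and the window of Cdkn2d hold 3 copies each, and that of Cdk6 holds 0. Of the E2F motifs searched on both strands (TTTCCCGC, TTTGGCGC, TTTCGCGC and TTTGCCGC), which 1.86% of the windows hold, none lay in the window of Ccne1 or in those of the other members searched. RefSeq windows were found for 8 of the 10 members, with 11 start sites in all, and those of Ccnd1 and Ccnd2 were not among them.

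**Figure D3:**
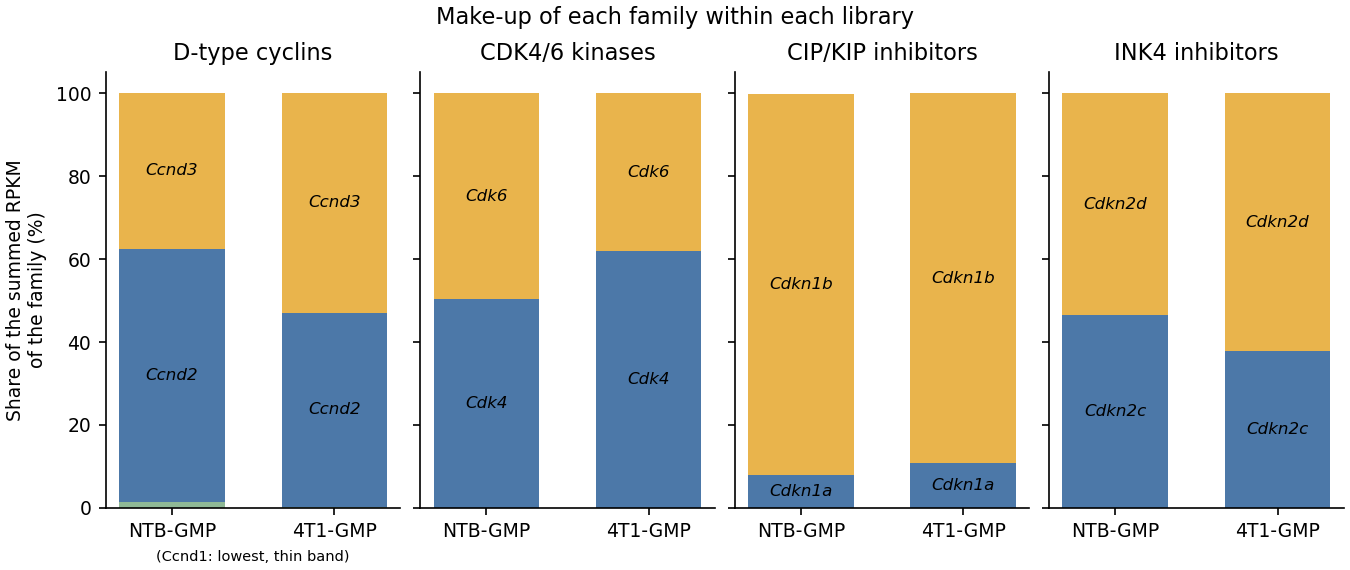
Share of each member in the summed RPKM of its family within each library, in percent. Ccnd3 goes from 37.5% to 53% of the D-type cyclins and Cdk4 from 50.4% to 61.9% of the kinases between NTB-GMP and 4T1-GMP.

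Of the CIP/KIP inhibitors, Cdkn1b was the main transcript and was lower in 4T1-GMP. Cdkn1b (chr6:134920401-134925513, plus strand), encoding p27, which holds cyclin E-CDK2 inactive in resting cells, had 12.9 RPKM in NTB-GMP against 9.96 in 4T1-GMP (log2 ratio -0.37, interval -0.57 to -0.18). Cdkn1a (chr17:29090976-29100727, plus strand), encoding p21, the inhibitor that p53 induces after DNA damage, was at a low level, at percentiles 2.18 and 3.86 of the genes tested in NTB-GMP and 4T1-GMP. It had 1.12 RPKM in NTB-GMP from at least 23 reads and 1.2 RPKM in 4T1-GMP from at least 73 reads (log2 ratio 0.10, interval -0.59 to 0.85). That interval leaves room for a difference of 1.5-fold in either direction, so no difference of Cdkn1a was detectable at this depth. The log2 change in the ratio of Cdkn1b to Cdkn1a was -0.48, with an interval that held 0 (-1.25 to 0.24).

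The INK4 inhibitors were of similar level to each other. Cdkn2c (chr4:109660876-109667189, minus strand), encoding p18, had 7.5 RPKM in NTB-GMP against 5.8 in 4T1-GMP (log2 ratio -0.37, interval -0.63 to -0.10). Cdkn2d (chr9:21288410-21291407, minus strand), encoding p19, had 8.66 RPKM in NTB-GMP from at least 56 reads and 9.55 RPKM in 4T1-GMP from at least 182 reads (log2 ratio 0.14, interval -0.30 to 0.60). Cdkn2d was the higher of the pair in both libraries, and the ratio of Cdkn2c to Cdkn2d was 0.866 in NTB-GMP and 0.607 in 4T1-GMP, a log2 change of -0.51 whose interval just held 0 (-1.04 to 0.01). The other INK4 genes, Cdkn2a and Cdkn2b, were listed at 0 in both libraries. Of the 4 ratios between members compared, those of Ccnd2 to Ccnd3 and of Cdk6 to Cdk4 had intervals away from 0. The summed RPKM of the 4 inhibitors was 30.2 in NTB-GMP and 26.5 in 4T1-GMP, a log2 ratio of -0.19.

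Several members share exons with a gene on the opposite strand in GENCODE M21, and whether reads were assigned by strand is not given in the sources used here. Cdk4 overlaps Tspan31, a tetraspanin gene, which had 35.3 RPKM in NTB-GMP against 47.2 in 4T1-GMP (log2 ratio 0.42). Ccnd3 overlaps Bysl, a ribosome biogenesis gene with 10.2 and 12.3 RPKM (log2 ratio 0.27, the same as Ccnd3). Ccnd1 overlaps Oraov1, with 4.81 and 5.78 RPKM (log2 ratio 0.26), which went the other way from Ccnd1. Ccnd2 overlaps the antisense transcript 9330179D12Rik, at 0.46 and 0.29 RPKM. Their part in the values of the members was not tested.

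Of 47 other genes of the G1/S machinery, 44 had a mean of at least 1 RPKM. Of these, 0 were higher in 4T1-GMP by 1.5-fold or more, against 9.80% of all genes tested, and 4 were lower by as much, against 11.6%, a count near the background. The list had a median log2 ratio of -0.01 against 0.05 over all genes tested. Without Rn45s in the library sizes these medians were -0.18 and -0.11. Of the 4 lower genes, 3 were E2F or DP factors, the transcription factors downstream of RB. E2f1 had 10.8 and 7.13 RPKM in NTB-GMP and 4T1-GMP (log2 ratio -0.60, interval -0.94 to -0.27), E2f5 had 2.13 and 0.952 RPKM (log2 ratio -1.09), and Tfdp2, encoding a dimer partner of E2F, had 13.2 and 7.7 RPKM (log2 ratio -0.77). The other was Dyrk1b, a kinase gene linked to quiescence, with 2.09 and 0.67 RPKM (log2 ratio -1.51, interval -2.21 to -1.07). Tfdp1, the most abundant of the E2F and DP genes, went the other way within 1.5-fold, with 126 and 181 RPKM (log2 ratio 0.52). Those 10 E2F and DP genes had a median log2 ratio of -0.23. The RB family was within 1.5-fold, with Rb1 at -0.19, Rbl1 at 0.19 and Rbl2, which encodes the pocket protein p130 of resting cells, at -0.46. Cdk2, the kinase that cyclin E1 activates, had a log2 ratio of 0.16 with an interval that held 0 (-0.07 to 0.39). Cdc25a, encoding the phosphatase that activates CDK2, had 0.49 (interval 0.38 to 0.61). Among the subunits of ubiquitin ligases that degrade cyclins and inhibitors, none of 12 was past 1.5-fold. Fbxw7, which targets cyclin E, had 7.67 and 5.27 RPKM (log2 ratio -0.53, interval -0.72 to -0.36), Ambra1, which targets D-type cyclins, had 15.8 and 11.1 RPKM (log2 ratio -0.51, interval -0.68 to -0.34), and Skp2, which targets p27, had 11.8 and 11.7 RPKM (log2 ratio -0.02).

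**Figure D4:**
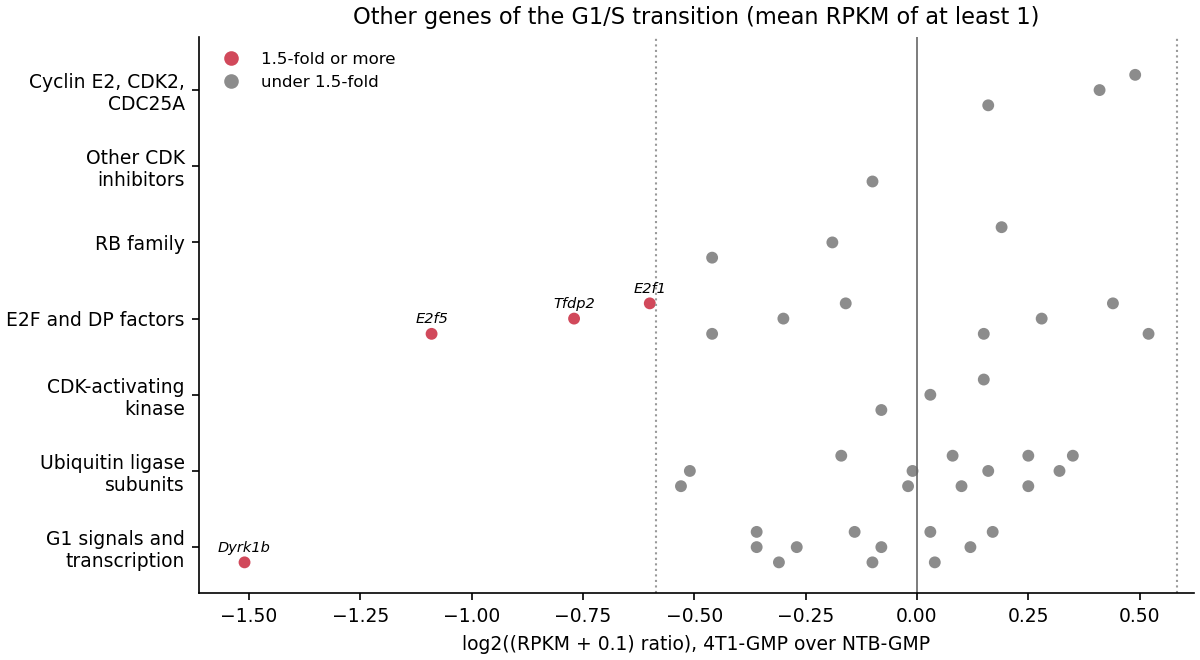
Log2((RPKM + 0.1) ratio) of 4T1-GMP over NTB-GMP for the 44 other G1/S genes with a mean of at least 1 RPKM, 1 point per gene, grouped by role; dotted lines mark 1.5-fold. The named genes past 1.5-fold, Dyrk1b, E2f5, Tfdp2 and E2f1, all lie on the left.

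Among genes further along the cell cycle, the number of higher S-phase genes depended on the scaling. Their median lay above that of all genes tested at the main setting and without Rn45s, but not after quantile normalization. Of 36 S-phase genes under E2F control, 27 were higher and 9 lower in 4T1-GMP, where 54.7% of all genes tested were higher, and the median log2 ratio was 0.20. Of the 36, 2 were higher by 1.5-fold or more, against 9.80% of all genes tested. Without Rn45s in the library sizes 21 were higher and 15 lower (median 0.04). Over all genes tested 4071 were then higher and 6307 lower (median -0.11). After quantile normalization 18 of the S-phase genes were higher and 17 lower (median 0.01), beside 5244 and 5118 of all genes tested (median 0.01). The 2 past 1.5-fold were Rrm2, a ribonucleotide reductase subunit (56.6 and 145 RPKM, log2 ratio 1.36), and Asf1b, a histone chaperone (18.9 and 32.4 RPKM, log2 ratio 0.78), whereas Pola1 (-0.35) and Cdt1 (-0.27) were the lowest. Of 24 G2 and M-phase genes, 19 were higher and 5 lower, with a median of 0.35 against 0.05 over all genes tested. By 1.5-fold or more, 5 were higher and 1 was lower, where 9.80% and 11.6% of all genes tested were. Cdc20 and Ube2c, which act in the anaphase-promoting complex pathway, both had a log2 ratio of 0.75, while Cdc25b (-1.03) and Cenpf (-0.58) were the lowest. Without Rn45s in the library sizes, or after quantile normalization, 1 of the 24 was higher and 2 were lower by 1.5-fold or more. The share of all genes past the fold is not given at those settings. The medians were then 0.19 and 0.18, against -0.11 and 0.01 over all genes tested. Mki67, a common marker of cycling cells, had 136 and 129 RPKM (log2 ratio -0.08).

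Other p53 target genes were read beside Cdkn1a. Of 35, 24 had a mean of at least 1 RPKM, and their median log2 ratio was 0.08, with 3 higher and 0 lower by 1.5-fold or more, where 9.80% and 11.6% of all genes tested were. The 3 higher genes are near the background. Without Rn45s in the library sizes the median was -0.09, against -0.11 over all genes tested. Pmaip1, which encodes the death protein NOXA, had 1.07 and 3.11 RPKM (log2 ratio 1.45, interval 0.98 to 2.14), and Sesn2, a stress-induced gene of the sestrin family, had 0.888 and 1.82 RPKM (log2 ratio 0.96). The other gene past 1.5-fold was Aen, which encodes a nuclease, with 19.1 and 30.4 RPKM (log2 ratio 0.67). Sesn1 (-0.42) and Dcxr (-0.26) were the lowest. Mdm2, the negative regulator of p53, had 15.7 and 16.5 RPKM (log2 ratio 0.08, interval -0.18 to 0.34), and Trp53 had 59.6 and 59.3 RPKM.

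Markers of several cell types differed between the libraries far more than the G1 genes did. The median log2 ratio of the tested markers was 2.81 for mature neutrophils and -2.50 for monocytes and dendritic cells. It was 0.12 for the GMP markers, which went past 1.5-fold in both directions. The sorted cells held the markers of GMPs in both libraries, with Mpo at 5163 and 5625 RPKM and Elane at 1853 and 2935 RPKM. Of 9 GMP markers, 4 were higher and 3 lower in 4T1-GMP by 1.5-fold or more, where 9.80% and 11.6% of all genes tested were. The summed level of the 9 was 10614 RPKM in NTB-GMP against 16261 in 4T1-GMP. The 3 lower ones encode surface proteins of progenitors: Kit had 78.5 and 49.1 RPKM, Cd34 had 154 and 59.4 RPKM, and Fcgr3 had 53.1 and 28.6 RPKM. Of the genes of 4 surface proteins that mark stem cells, megakaryocytic cells or monocytes, Ly6a was listed at 0 in NTB-GMP and had 0.266 RPKM in 4T1-GMP, Slamf1 had 0.0731 and 0.0868 RPKM, Itga2b had 12.8 and 4.43 RPKM, and Csf1r had 12.1 and 7.89 RPKM. These 4 summed to 25 RPKM in NTB-GMP against 12.7 in 4T1-GMP. For its culture experiments, the paper describes a GMP sort on surface proteins that include the products of Kit, Fcgr3, Ly6a and Slamf1. Whether that sort gave these libraries is not stated. If it did, the levels of these genes are not independent of the gate.

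Beside the counts that follow, 9.80% of all genes tested were higher and 11.6% lower in 4T1-GMP by 1.5-fold or more. All 14 markers of mature neutrophils were tested and 13 were higher by 1.5-fold or more, with S100a9 at 189 and 1974 RPKM and S100a8 at 208 and 1594 RPKM. Their sum was 524 RPKM in NTB-GMP against 4086 in 4T1-GMP, and none was listed at 0. Of 14 monocyte and dendritic markers, 10 were tested and all 10 were lower by 1.5-fold or more, with Ly6c2 at 88.7 and 36.8 RPKM and Cd74 at 42.3 and 4.85 RPKM. Their sum was 265 RPKM in NTB-GMP against 73.3 in 4T1-GMP, where Batf3 was listed at 0. Of 8 basophil, eosinophil and mast cell markers, 7 were lower by 1.5-fold or more, with Prg2 at 1208 and 403 RPKM and Epx at 160 and 59.1 RPKM, and their sum was 1824 and 650 RPKM. Of 12 stem and early progenitor markers, 5 were tested and 3 were lower by 1.5-fold or more. Among the 12, Cd48 had 64.3 and 46.3 RPKM and Gata2 had 29.5 and 5.14 RPKM. Their sum was 127 and 69.9 RPKM, with Esam listed at 0 in both libraries and Ly6a in NTB-GMP. Of 10 erythroid and megakaryocyte markers, 5 were tested, with 1 higher (Tfrc, 36.6 and 73 RPKM) and 4 lower, Itga2b among them, and a sum of 59.9 and 79.5 RPKM, and the globin genes Hbb-b1 and Hba-a1 were listed at 0 in both libraries. Of 10 lymphoid markers 1 was tested, Cd79b, with 14.7 and 12.4 RPKM. Dntt had 1.01 and 0.188 RPKM, and the lymphoid sum was 16.7 and 12.8 RPKM. The part that these differences in the sorted cells play in the values of Ccnd2, Cdk6, Ccne1 and the other members was not tested.

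**Figure D5:**
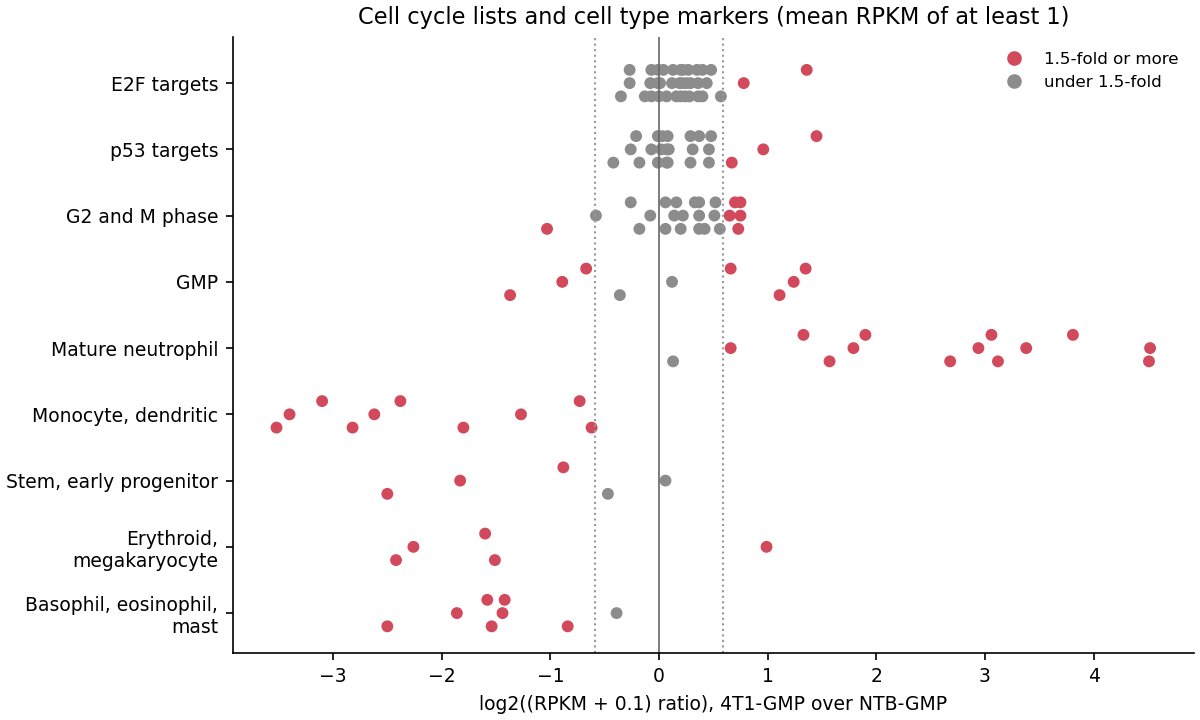
Log2((RPKM + 0.1) ratio) of 4T1-GMP over NTB-GMP for the tested genes of 3 lists of cell cycle genes and p53 targets and of 6 cell type marker lists, 1 point per gene; dotted lines mark 1.5-fold. The mature neutrophil markers lie to the right and the monocyte and dendritic markers to the left, while most E2F and p53 target genes lie between the dotted lines.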

How the data were processed

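Deposited values were RPKM, which the authors had computed for each gene symbol in each library. The submitters' processing notes name the build mm10 and CASAVA 1.8.2, cutadapt 1.2.1, TopHat2 2.0.13, Picard 1.97, HTSeq 0.6.1 and edgeR 3.12.1. The gene annotation and lengths are not given in the sources used here. The members and gene lists were chosen with earlier results of these data known.

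Whole reads were recovered for 14833 of 14833 genes above 0, within a relative tolerance of 1e-11. A factor shared by a gene's reads and length cannot be seen, so reads are lower bounds and intervals are at least as wide as needed. In a test on simulated data with 14426 genes, modelled on this comparison, the ratio of reads was right for 100% and both counts exact for 83.19%. Of the intervals, 96.47% held the true ratio. The simulated reads followed a Poisson model without duplicates, so that share checks the calculation and not the spread of real reads. In total at least 9486697 reads were recovered for NTB-GMP and 26353075 for 4T1-GMP.

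The divisors are not whole numbers. A mean log2 ratio, weighted toward genes with more reads, was taken over the 13182 genes above 0 in both libraries. It was 0.002 after trimming 30% of ratios and 5% of levels at each end. The RPKM may therefore already hold a scaling factor for composition. Of the divisor, 17% in NTB-GMP and 6.98% in 4T1-GMP was Rn45s, and leaving it out, as an alternative, shifts each log2 ratio of RPKM by -0.16. If such a factor is present, that alternative corrects for composition a second time.

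Ratios used log2(RPKM + 0.1). The 95% intervals were Clopper-Pearson intervals on the reads of both libraries, Poisson intervals within a library, and exact conditional intervals of the odds ratio for ratios between members. Intervals compare these libraries, not the conditions, and cover counting error only, since PCR reads without molecular identifiers are not independent molecules. All members were named, with other G1/S genes past 1.5-fold, the 2 largest rises and falls of each cell cycle and p53 list, and the 2 most abundant genes of each marker list. Named besides these, after their values were seen, were Ccne2, Cdk2, Cdc25a, Myc, Tfdp1, Rb1, Rbl1, Rbl2, Fbxw7, Ambra1, Skp2, Cdkn2a, Cdkn2b, Mki67, Mdm2, Trp53, Aen, Kit, Cd34, Fcgr3, Ly6a, Slamf1, Esam, Batf3, Hbb-b1, Hba-a1 and the overlapping genes. Chil3 was matched from an older symbol. Promoter windows came from RefSeq on GRCm38.p6, the assembly of mm10. The tools were Python 3.11.15, numpy 2.4.6, pandas 2.3.3, scipy 1.17.1 and matplotlib 3.10.9.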

Additional observations from a re-analysis of the deposited data

How the results depend on the processing

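Of 49 log2 ratios of members recomputed under other settings, 41 moved by less than their counting error, 7 moved by more without changing sign and 1 reversed: Cdk4 was at -0.02 after quantile normalization. Cdkn1a (-0.05) and Cdkn2d (-0.02) changed sign within their counting error without Rn45s. Without Rn45s in the library sizes, Ccnd3 was at 0.11 and Cdk4 at 0.07, and a pseudocount of 1 put Ccnd1 at -0.82. The number of members lower in 4T1-GMP by 1.5-fold or more was 1 as reported. It was 2 without Rn45s and 2 after quantile normalization, as Cdk6 joined Ccnd2 (-0.60 and -0.70), 2 over all genes above 0, as Ccnd1 entered, and 4 at the lowest fold tried. At 2-fold, 0 members were higher and 0 lower. Of the other G1/S genes, 8 were lower without Rn45s, 2 were lower with a mean of at least 5 RPKM, and 1 was higher after quantile normalization. Of the G2 and M-phase genes, 1 was higher and 2 were lower without Rn45s and again after quantile normalization, and 2 were lower after centring on the median. Of the p53 targets, 6 were higher and 3 lower over all genes above 0, and 1 was higher with a mean of at least 5 RPKM. The shares of all genes past the fold are not given at these settings. No background therefore stands beside these counts, and they are not read as results about the members or lists. Shifts without Rn45s follow from the common shift of -0.16, and filters change which genes are tested; the cause was not tested for the changes under quantile normalization. The 4 ratios between members moved by less than their counting error under pseudocounts of 0.1 and 1. Depth limits Ccnd1, Cdkn1a and Cdkn2d, which had the fewest reads with Ccne1. No paired analysis was possible because there was a single library in either group, which also left no replicate to omit.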

Other observations

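Beyond the 10 members, 48 other symbols named as cyclins, CDKs, CDK-like kinases or CDK inhibitors were deposited, some of them in the lists above, of which 35 had a mean of at least 1 RPKM. Their median log2 ratio was 0.05, as over all genes tested, and 4 were higher and 2 lower in 4T1-GMP by 1.5-fold or more, where 9.80% and 11.6% of all genes tested were. The genes named in this paragraph were chosen after their values were seen. Ccno, an atypical cyclin, had 0.995 RPKM in NTB-GMP against 3.09 in 4T1-GMP (log2 ratio 1.54, 95% Clopper-Pearson interval on the reads 0.95 to 2.40). Cdk18 had 2 and 4.07 RPKM (log2 ratio 0.99, interval 0.47 to 1.62), Ccnb1, the cyclin of mitotic entry, had 37 and 61.3 RPKM (log2 ratio 0.73), and Ccnyl1 had 3.22 and 5.27 RPKM (log2 ratio 0.69). Ccng2, a cyclin gene known to be high in cells that leave the cycle, had 7.29 and 3.35 RPKM (log2 ratio -1.10, interval -1.40 to -0.84), whereas its relative Ccng1 had 22.8 and 31.9 RPKM (log2 ratio 0.48, interval 0.37 to 0.60). Cdk20 had 1.34 and 0.656 RPKM (log2 ratio -0.93). Cyclins and kinases known for roles in transcription lay on both sides of 0, with Ccnc at 0.57, Cdk8 at 0.27, Ccnt1 at 0.05, Cdk9 at -0.10, Ccnt2 at -0.34, Ccnk at -0.39 and Cdk19 at -0.44. Ccna1, Ccnb3 and Cdk15 were listed at 0 in both libraries.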
